A study of Mus musculus with 6 samples.

Results

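The genes of RANK, TRAF and NF-kB signalling carry the signal of RANKL from the cell surface to the nucleus of the osteoclast precursor. RANK, the receptor for RANKL, has no enzyme activity of its own and recruits TRAF adaptors, of which TRAF6 is the one that osteoclast formation needs. The adaptors switch on the TAK1 complex and the IkB kinases, the IkB proteins are degraded, NF-kB dimers enter the nucleus, and MAP kinases are activated in parallel. NF-kB then induces several of its own inhibitors, among them IkBα and A20, which end the signal. The list held 36 genes, taken as the receptor, the TRAF adaptors, NF-kB and IkB genes, their kinases, deubiquitinating enzymes and MAP kinases, and 32 of them were measured among 19930 genes. Traf3, Nfkb1, Chuk and Mapk3 had no feature under their name in the annotation used and were not analysed here. A feature is the set of probes that the array reports as 1 value. No feature was shared between a member and another gene, 31 members had 1 feature each, and Birc2 had 2, of which the brighter was used.

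Expression was measured on Affymetrix Mouse Gene 1.0 ST arrays in 2 cell lines, H10, the osteoclastogenic line, and C8, the non-osteoclastogenic line, with 3 arrays for each. Both were derived from the mouse macrophage line RAW264.7, carried a retroviral Lifeact-mEGFP construct with puromycin resistance, and had been cultured for 2 days with purified recombinant RANKL at 60 ng/mL. No array without RANKL was analysed, so the values show the lines under RANKL and not a response to it. Each line came from a clone picked by limiting dilution, so that a difference between H10 and C8 cells cannot be told apart from a difference between any 2 clones. The sources used here do not say if the 3 arrays stand for separate cultures, and the p-values then cover only array-to-array spread, possibly technical. In RNA from whole cultures, fewer cells of a type and less RNA per cell cannot be told apart. Values are log2 values after RMA normalization, and a log2 fold change is H10 minus C8. Where genes are said to have risen or fallen, they were higher or lower in H10 than in C8 cells, and no change over time is meant.

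NF-kB dimers bind kappaB sites in DNA. The promoters shown here are those of Nfkbia, Nfkbie, Nfkb2, Tnfaip3 and Tnip1, which hold a match to the kappaB consensus before the start. They show where such sites lie in genes that feed back on the pathway. They were chosen after their values and matches were seen. Cyld, Map3k7 and Rel, also an NF-kB gene, held a match before the start too and are not printed. The windows of Bcl3 and Traf1 held 0 matches there, but Bcl3 held 1 when the 50 bases after the start were included. Other Nfkb2 starts, also not printed, held matches beginning 236 and 225 bases before them. Another Tnfaip3 start held 0 matches before it. Sequences are from RefSeq on GRCm38.p6. The set of promoters used here covered 27 of the 32 members and held none for Gab2, Relb, Nfkbiz, Ikbkb or Tab1. Each line gives the 250 bases before a transcript start, 5′ to 3′ on the strand of the gene, with matches to the kappaB consensus on either strand in capitals.
Nfkbia, chr12:55492648-55492897, minus strand: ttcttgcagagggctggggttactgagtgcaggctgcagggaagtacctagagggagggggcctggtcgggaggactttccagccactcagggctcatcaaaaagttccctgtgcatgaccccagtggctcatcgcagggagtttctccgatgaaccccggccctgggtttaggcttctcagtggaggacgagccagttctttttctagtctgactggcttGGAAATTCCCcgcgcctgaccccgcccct
Nfkbie, chr17:45555450-45555699, plus strand: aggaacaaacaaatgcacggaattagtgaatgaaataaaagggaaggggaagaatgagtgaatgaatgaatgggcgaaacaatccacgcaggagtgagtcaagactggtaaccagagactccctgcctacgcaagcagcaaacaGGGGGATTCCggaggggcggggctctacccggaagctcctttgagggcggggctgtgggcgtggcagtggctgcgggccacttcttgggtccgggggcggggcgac
Nfkb2, chr19:46304487-46304736, plus strand: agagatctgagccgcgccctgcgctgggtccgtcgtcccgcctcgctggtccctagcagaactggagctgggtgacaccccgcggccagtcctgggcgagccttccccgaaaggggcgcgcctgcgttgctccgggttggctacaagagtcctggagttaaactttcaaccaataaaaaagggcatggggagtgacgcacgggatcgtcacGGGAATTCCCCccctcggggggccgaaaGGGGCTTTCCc
Tnfaip3, chr10:19015411-19015660, minus strand: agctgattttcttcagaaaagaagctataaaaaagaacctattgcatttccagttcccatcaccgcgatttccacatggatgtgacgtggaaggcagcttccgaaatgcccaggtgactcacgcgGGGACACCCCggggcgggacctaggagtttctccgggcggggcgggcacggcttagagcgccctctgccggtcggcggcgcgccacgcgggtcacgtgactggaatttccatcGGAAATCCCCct
Tnip1, chr11:54962941-54963190, minus strand: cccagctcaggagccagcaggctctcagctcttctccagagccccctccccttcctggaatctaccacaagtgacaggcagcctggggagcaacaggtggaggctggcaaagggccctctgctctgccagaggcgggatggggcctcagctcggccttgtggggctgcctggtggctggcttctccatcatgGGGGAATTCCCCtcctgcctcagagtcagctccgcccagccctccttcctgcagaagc

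The kappaB match of Nfkbia, which encodes IkBα, began 29 bases before the start, and that of Nfkbie, which encodes IkBε, began 106 bases before it. In Nfkb2, which encodes the precursor of the NF-kB subunit p52, 3 matches began 39, 38 and 11 bases before the start shown. The 39 and 38 ones overlapped. Tnfaip3, which encodes A20, had matches at 125 and 12 bases before the start shown. Tnip1, which encodes a binding partner of A20, had 3 that overlapped at 58, 57 and 56 bases. Over the whole promoter window of 300 bases, from 250 before to 50 after the start, 11 of 34 member promoters (32.4%) held a match. The share was 8.46% of all 32851 promoters of the table. Some genes have several starts, with windows that can overlap, so the 34 promoters belong to 27 genes. By gene, 9 of 27 (33.3%) held a match, against 9.55% of all genes with a promoter. The AP-1 site TGANTCA was found in 4 of 34 (11.8%), against 7.81% of all promoters, and the interferon response element in 1 of 34 (2.94%), against 3.44%. No kappaB match overlapped an AP-1 match in the member promoters. These counts describe letters in a window and show no binding.

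None of the 32 members passed the test between the lines. With limma and the Benjamini-Hochberg adjustment over all features, 0 members were higher and 0 were lower in H10 cells at an adjusted p under 0.05, where 1.85% of all genes were higher and 1.04% were lower (2.90% in either direction, and 2.12% of all features). At an unadjusted p under 0.05, 4 members (12.5%) were higher and 3 (9.38%) were lower, against 6.10% and 7.67% of all genes. All 3 H10 arrays lay above all 3 C8 arrays for 2 members (6.25%) and below them for 5 (15.6%), against 7.74% and 12.7% of all genes. The log2 fold changes ran from -0.46 for Nfkbiz to 0.47 for Tnfaip3, with 12 above and 20 below 0 and a median of -0.02. Over all 19930 genes, 7847 were above and 12083 below 0, and the median was -0.03. The 95% interval of the difference lay inside 2-fold in both directions for all 32 members, against 97.7% of all genes. It lay inside 1.5-fold for 28 (87.5%), against 92.5% of all genes. Among genes brighter than the median value of the table, the shares were 96.6% and 88.9%. The intervals are those of each gene alone and are not adjusted for the number of genes. For 31 members every array was above its own median, the exception being Traf5.

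**Figure D1:**
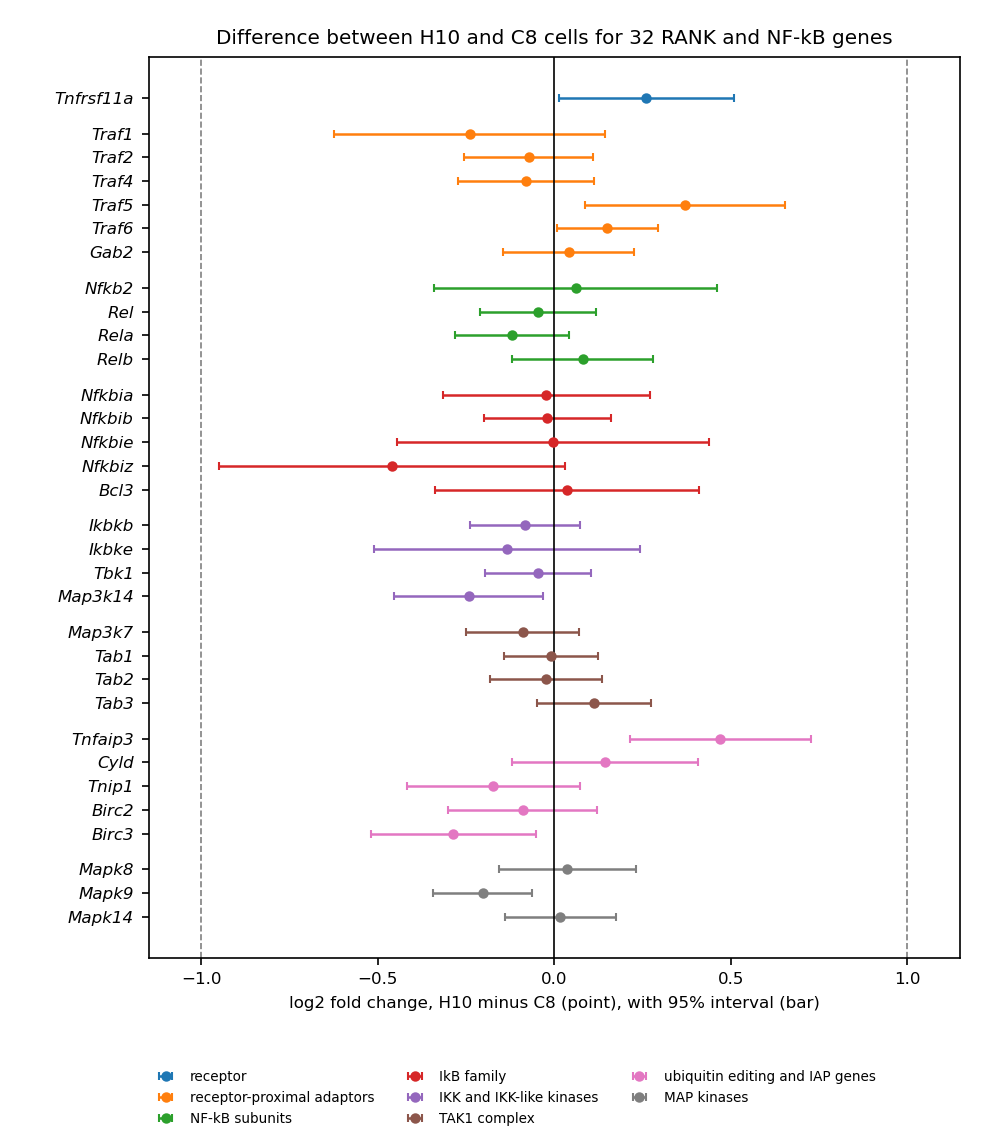
Log2 fold change, H10 minus C8, of the 32 measured genes on the horizontal axis, with points for the estimate and bars for the 95% interval from limma (3 arrays per line), coloured by role, and dashed lines at 2-fold. All intervals lie between the dashed lines, and those of Tnfaip3 and Nfkbiz reach farthest from 0.

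Tnfrsf11a, which encodes RANK, had log2 values of 11.54, 11.25 and 11.34 on the H10 arrays, against 11.25, 11.11 and 10.99 on the C8 arrays. The lines met at 11.25, which was the lowest H10 and the highest C8 value. On the log2 scale H10 cells were 0.26 higher, with a 95% interval from 0.01 to 0.51 (adjusted p = 0.396 from limma). Traf6, the adaptor through which RANK drives osteoclast formation, had 11.15, 11.07 and 11.10 in H10 cells, against 11.00, 10.96 and 10.91 in C8 cells. The arrays did not overlap, with a gap of 0.07 between them, and the difference was small, 1.11-fold with an interval from 1.00-fold to 1.23-fold (adjusted p = 0.396). Traf5, an adaptor shared by several TNF receptors, had 7.94, 8.18 and 8.19 in H10 cells, against 7.94, 7.69 and 7.57 in C8 cells. Replicate 1 of both lines stood at the same value, while the other arrays were apart. Among the adaptors it had the largest log2 fold change, 0.37 with a standard error of 0.12 (adjusted p = 0.262). Traf1, an adaptor that NF-kB itself induces, had 10.65, 10.26 and 10.33 in H10 cells, against 10.94, 10.60 and 10.42 in C8 cells. The lines overlapped, and in each the replicate 1 array was the highest. Traf2, which works with the cIAP proteins, Traf4, a member of the family with roles mostly outside immunity, and Gab2, a scaffold that binds RANK, gave -0.07, -0.08 and 0.04 as log2 fold changes, with adjusted p-values of 0.83, 0.823 and 0.929.

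Among the NF-kB subunits the lines were close. Rela, which encodes the p65 subunit, had 11.32, 11.38 and 11.34 in H10 cells, against 11.56, 11.39 and 11.45 in C8 cells. The gap between the highest H10 and the lowest C8 value was 0.01, and the log2 fold change was -0.12 (95% interval -0.28 to 0.04, adjusted p = 0.602). Rel, which encodes c-Rel, and Relb, the partner of p52 in the alternative pathway, had log2 fold changes of -0.05 (interval -0.21 to 0.12) and 0.08 (interval -0.12 to 0.28). Nfkb2 had 11.16, 10.83 and 10.72 in H10 cells, against 11.15, 10.72 and 10.66 in C8 cells. In both lines its replicate 1 array was the highest, and the log2 fold change of 0.06 was smaller than the SD of either line, 0.23 in H10 and 0.27 in C8 cells.

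The IkB family held the lowest fold change of the list. Nfkbiz, which encodes IkBζ, a nuclear member of the family that acts as a cofactor of NF-kB, had 9.36, 9.86 and 9.92 in H10 cells, against 9.82, 10.28 and 10.42 in C8 cells. The groups overlapped. Replicate 1 was low in both lines, and within each replicate number the H10 array was the lower one. The replicate numbers were not taken to pair the arrays, and H10 replicates 2 and 3 lay above C8 replicate 1. The mean was 9.71 ± 0.31 in H10 and 10.17 ± 0.31 in C8 cells (SD, n = 3 each), a log2 fold change of -0.46 with an interval from -0.95 to 0.03 (adjusted p = 0.458). Taken from the replicate 1 arrays alone the difference was -0.46, and from replicates 2 and 3 it was -0.46 (adjusted p = 0.109). With a term for replicate 1 against replicates 2 and 3, a fit that was chosen after the values were seen, the difference passed with an adjusted p = 0.0294. The 17 alternative settings gave adjusted p-values of 0.0294 to 0.738. Nfkbia had 13.01, 12.75 and 12.80 in H10 cells, against 13.11, 12.76 and 12.76 in C8 cells. The lines overlapped, with a ratio of H10 to C8 of 0.98 (interval 0.80 to 1.21, adjusted p = 0.978). Nfkbie had 10.19, 9.65 and 9.87 in H10 cells, against 10.23, 9.71 and 9.78 in C8 cells, and its log2 fold change was -0.00 (interval -0.44 to 0.44). Bcl3, a nuclear relative of the IkB proteins that binds p50 and p52, and Nfkbib, which encodes IkBβ, were at 0.04 and -0.02 on the log2 scale (adjusted p = 0.972 and 0.968).

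**Figure D2:**
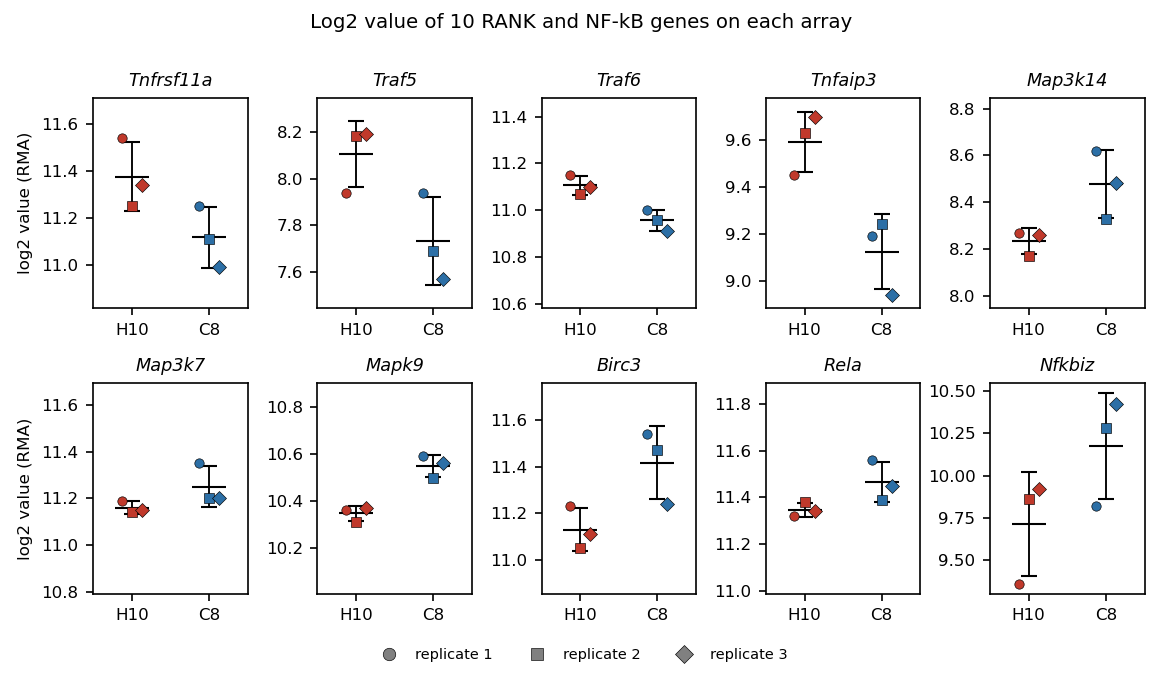
Log2 value of 10 genes on each H10 and C8 array, with the replicate number as the symbol, the mean as a horizontal line and the SD as the bar (n = 3), each panel with its own vertical scale. Tnfaip3 and Traf6 have all H10 arrays above all C8 arrays, and Nfkbiz has its lowest value at replicate 1 in each line.

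All 4 measured kinases of the IkB kinase group had negative fold changes, as had 12083 of all 19930 genes, and none passed. Map3k14, which encodes NIK, the kinase that starts the alternative pathway, had 8.27, 8.17 and 8.26 in H10 cells, against 8.62, 8.33 and 8.48 in C8 cells. All H10 arrays were below all C8 arrays, by a gap of 0.06, and the ratio of H10 to C8 was 0.84 (interval 0.73 to 0.98, adjusted p = 0.332). Ikbkb, which encodes the kinase IKKβ of the classical pathway, had a log2 fold change of -0.08 (interval -0.24 to 0.07). Tbk1 and Ikbke, the kinases that link NF-kB to interferon induction, had -0.05 (interval -0.20 to 0.10) and -0.13 (interval -0.51 to 0.24). Ikbke had 7.99, 8.15 and 8.02 in H10 cells, against 8.55, 8.05 and 7.96 in C8 cells, where replicate 1 stood above the other arrays.

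The TAK1 complex sits between TRAF6 and both the IkB kinases and the MAP kinases. Its kinase gene Map3k7 had 11.19, 11.14 and 11.15 in H10 cells, against 11.35, 11.20 and 11.20 in C8 cells. The gap between the lines was 0.01 and the log2 fold change -0.09 (interval -0.25 to 0.07, adjusted p = 0.734). Tab1, which activates TAK1, was the member with the narrowest interval, at 9.39, 9.38 and 9.36 in H10 cells, against 9.42, 9.39 and 9.35 in C8 cells. Its log2 fold change was -0.01, with an interval from -0.14 to 0.12. Tab2 and Tab3, which tether TAK1 to ubiquitin chains, had -0.02 (interval -0.18 to 0.14) and 0.11 (interval -0.05 to 0.27).

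Tnfaip3 had the largest fold change of the list. A20, its product, is an enzyme that edits ubiquitin and shuts off NF-kB signalling, and its gene is a classical NF-kB target. The values were 9.45, 9.63 and 9.70 in H10 cells, against 9.19, 9.24 and 8.94 in C8 cells. All H10 arrays lay above all C8 arrays, by a gap of 0.21. The mean was 9.59 ± 0.13 in H10 and 9.12 ± 0.16 in C8 cells (SD, n = 3 each), a 1.39-fold difference with an interval from 1.16-fold to 1.65-fold (0.47 on the log2 scale with a standard error of 0.11, adjusted p = 0.106 from limma). It passed where dim features were left out of the table (adjusted p = 0.0422) and where the p-values were adjusted over genes after averaging features (adjusted p = 0.0237), over a range of 0.0237 to 0.342 in the 17 settings. Cyld, a deubiquitinating enzyme that restrains TRAF6, and Tnip1 had log2 fold changes of 0.14 (interval -0.12 to 0.41) and -0.17 (interval -0.42 to 0.07).

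Birc3 and Birc2, neighbours on chromosome 9, encode the cIAP ubiquitin ligases that keep NIK low. Birc3 had 11.23, 11.05 and 11.11 in H10 cells, against 11.54, 11.47 and 11.24 in C8 cells. The H10 arrays were lower throughout, although the nearest arrays were 0.01 apart, and the ratio of H10 to C8 was 0.82 (interval 0.70 to 0.96, adjusted p = 0.297). Birc2 was at -0.09 on its brighter feature (adjusted p = 0.817) and at -0.20 on its dimmer one (adjusted p = 0.269).

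Of the MAP kinases, Mapk9, which encodes JNK2, had 10.36, 10.31 and 10.37 in H10 cells, against 10.59, 10.50 and 10.56 in C8 cells. The arrays of each line lay close together, with SDs of 0.03 in H10 and 0.05 in C8 cells, and a gap of 0.13 separated them. The ratio of H10 to C8 was 0.87 (interval 0.79 to 0.96, adjusted p = 0.208). Mapk8, which encodes JNK1, and Mapk14, which encodes the kinase p38α, had log2 fold changes of 0.04 (interval -0.16 to 0.23) and 0.02 (interval -0.14 to 0.17).

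For several members the replicate 1 arrays differed from the others by more than the lines did. Bcl3 had 10.58, 10.17 and 10.30 in H10 cells and 10.60, 10.19 and 10.15 in C8 cells, so that replicate 1 was the highest array of each line. In 17 of the 32 members (53.1%) replicate 1 was the highest in both lines, against 19.7% of all genes and 28.9% of the 11189 genes brighter than the table median. Among the other pathway genes given below, the share was 57.1% for the Src and PI3K arm and 44.4% for the MAP kinase cascade. For NF-kB targets it was 26.7%, and for further adaptors and ubiquitin regulators 18.8%. Replicate 1 was the lowest in both lines for 1 member, Nfkbiz, against 11.8% of all genes. Replicate 1 exceeded the mean of replicates 2 and 3 by 0.25 or more in both lines for 4 members (12.5%). These were Nfkbie, Nfkb2, Bcl3 and Traf1, and the share was 1.61% of all genes and 2.45% of those brighter than the table median. Among the lists below it was 13.33% for NF-kB targets and 7.41% for the MAP kinase cascade. For the Src and PI3K arm it was 7.14%, and for the adaptors and ubiquitin regulators 3.12%. The excess was 0.43 in H10 and 0.485 in C8 cells for Nfkbie, and 0.385 in H10 and 0.46 in C8 cells for Nfkb2. For Bcl3 it was 0.345 in H10 and 0.43 in C8 cells, and for Traf1 0.355 in H10 and 0.43 in C8 cells. Nfkbia, just outside that limit, had 0.235 in H10 and 0.35 in C8 cells. Nfkbiz had the opposite sign, with -0.53 in H10 and -0.53 in C8 cells, and Tnfaip3 had -0.215 in H10 and 0.10 in C8 cells. The C8 replicate 1 array was above the mean of its line for 29 of the 32 members and the H10 replicate 1 array for 22. These 2 counts were not made over all genes. In C8 cells the median excess of replicate 1 was 0.1375 for members, 0.01 for all genes and 0.09 for those brighter than the table median. In H10 cells it was 0.0525, 0.015 and 0.01. Of the members with replicate 1 at the same end in both lines, 12 of 18 (66.7%) had a shift larger than the difference between the lines, against 54.7% of all such genes. These counts were made after the values were seen and carry no test. The labels do not say what the replicate number stands for, and the part of replicate 1 in the spread of each line was not tested beyond the fits given for it.

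**Figure D3:**
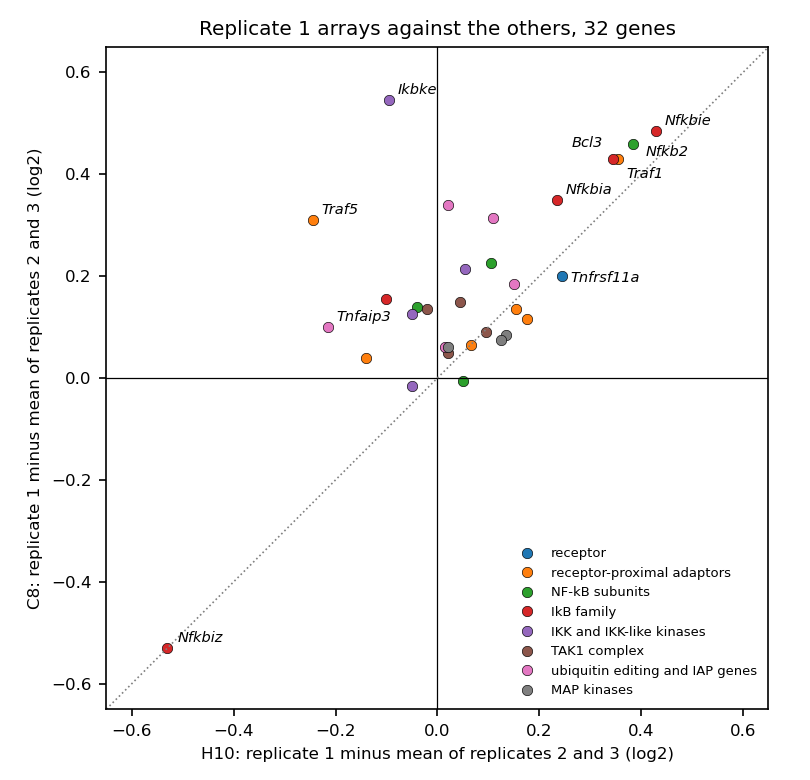
Replicate 1 value minus the mean of replicates 2 and 3, in log2 units, for each of the 32 genes in H10 cells (horizontal axis) and C8 cells (vertical axis), coloured by role, with a dotted line of equal values. Nfkbie, Nfkb2, Bcl3, Traf1 and Nfkbia lie at the upper right and Nfkbiz at the lower left.

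The other genes of the pathway held a few larger differences than the members did, none of them reaching 5-fold. Of 32 further adaptors and ubiquitin regulators, 1 rose and 0 fell, with a median log2 fold change of 0.02. Over all genes 1.85% were higher and 1.04% lower, and among genes brighter than the table median 2.94% and 1.67%. At an unadjusted p under 0.05, 2 rose and 3 fell, against 6.10% and 7.67% of all genes. Trafd1, a TRAF-type zinc finger protein that limits innate immune signalling, had 11.48, 11.91 and 11.92 in H10 cells, against 10.85, 10.86 and 11.11 in C8 cells, a 1.78-fold rise (adjusted p = 0.0418). The call was lost without any 1 array other than H10 replicate 1 (adjusted p = 0.0871 to 0.165). Ikbkg, the regulatory subunit of the IkB kinase complex, was at -0.08 on the log2 scale (adjusted p = 0.877).

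Of 27 genes of the MAP kinase cascade, 2 rose and 1 fell, against 1.85% and 1.04% of all genes, with a median of -0.04. At an unadjusted p under 0.05, 2 rose and 6 fell, against 6.10% and 7.67% of all genes. Both that rose encode phosphatases that switch MAP kinases off. Dusp4 had 11.47, 11.61 and 11.46 in H10 cells, against 9.97, 10.16 and 9.80 in C8 cells, a 2.90-fold rise (1.54 on the log2 scale with a standard error of 0.10, adjusted p = 0.00175). Dusp1 had 12.03, 11.44 and 11.61 in H10 cells, against 10.88, 10.62 and 10.62 in C8 cells, a 1.98-fold rise (adjusted p = 0.0363), and this call too was lost without any 1 array other than H10 replicate 1 (adjusted p = 0.0511 to 0.141). No array of one line reached the other for either gene. Dusp6, a phosphatase of ERK that was named after its values were seen, had the largest negative fold change of the cascade at 7.87, 8.32 and 8.20 in H10 cells, against 8.60, 9.56 and 9.55 in C8 cells (log2 fold change -1.11, adjusted p = 0.137). Map2k1, which encodes the ERK kinase MEK1, was lower in H10 cells. It had 11.34, 11.50 and 11.46 there, against 11.90, 11.82 and 11.82 in C8 cells (log2 fold change -0.41, adjusted p = 0.0376). That call was lost without any of the 6 arrays (adjusted p = 0.0819 to 0.155), with replicates 2 and 3 alone (0.114) and with median centring (0.0733). Map2k1 and Map2k5 lie, in the gene order of GRCm38.p6, between Kmt2a and Mto1 on chromosome 9, where 205 genes brighter than the table median had a median log2 fold change of -0.35. The part of this stretch in the lower value of Map2k1 was not tested. Neither Birc2 nor Birc3 lies in it, and Map3k8, which encodes a kinase upstream of MEK1, was at -0.18 (adjusted p = 0.572).

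**Figure D4:**
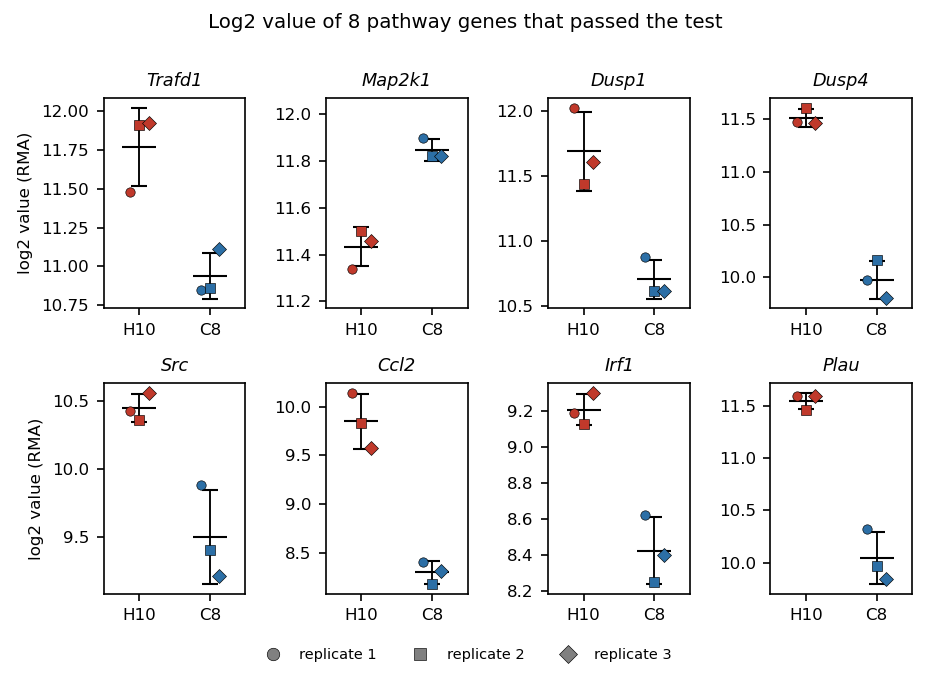
Log2 value of the 8 further pathway genes that passed the test, on each H10 and C8 array, with the replicate number as the symbol, the mean as a horizontal line and the SD as the bar (n = 3), each panel with its own vertical scale. Map2k1 is lower in H10 cells and the other 7 are higher, with no overlap between the lines.

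In the arm of RANK signalling that runs through Src and PI3K, 1 of 14 genes rose and 0 fell, with a median of 0.02. The shares over all genes were 1.85% and 1.04%. At an unadjusted p under 0.05, 4 rose and 2 fell, against 6.10% and 7.67% of all genes. Src, the kinase that osteoclasts need for their ruffled border, had 10.43, 10.36 and 10.56 in H10 cells, against 9.88, 9.40 and 9.21 in C8 cells, a 1.94-fold rise (adjusted p = 0.049). It did not pass without any 1 array other than C8 replicate 1 (adjusted p = 0.125 to 0.191) or with median centring (0.0722).

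Of 30 NF-kB target genes outside the list, 3 rose and 0 fell, against 1.85% and 1.04% of all genes, with a median of 0.11. At an unadjusted p under 0.05, 7 rose and 1 fell, against 6.10% and 7.67% of all genes. The chemokine gene Ccl2, whose product draws monocytes, had 10.14, 9.83 and 9.58 in H10 cells, against 8.41, 8.18 and 8.31 in C8 cells, a 2.93-fold rise (adjusted p = 0.00528). Plau, which encodes the protease urokinase, was 2.83-fold higher, with 11.59, 11.46 and 11.59 in H10 cells, against 10.32, 9.97 and 9.84 in C8 cells (adjusted p = 0.00369). Irf1, a transcription factor of the interferon response, was 1.72-fold higher, with 9.19, 9.13 and 9.30 in H10 cells, against 8.62, 8.25 and 8.40 in C8 cells (adjusted p = 0.019), but its other feature was at -0.02 on the log2 scale (adjusted p = 0.973). Tnf, which encodes TNF-α, and Nos2, which encodes the inducible nitric oxide synthase, were at 0.01 (adjusted p = 0.986) and 0.28 (adjusted p = 0.907) on the log2 scale, with Nos2 spread from 8.75 to 10.58 in H10 and from 9.38 to 9.79 in C8 cells. The calls for Dusp4, Ccl2 and Plau held without any 1 array. That of Irf1 was lost without any 1 array other than C8 replicate 1 (adjusted p = 0.0585 to 0.0961).

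Both lines carried macrophage genes. Of 8 macrophage markers, 6 were above the median of every array, and the list averaged 11.71 to 11.83 per H10 array and 11.31 to 11.39 per C8 array in log2 units. Of these markers 1 passed the test, Adgre1, which encodes the macrophage surface protein F4/80, at 9.58 ± 0.17 in H10 and 7.56 ± 0.16 in C8 cells (SD, n = 3 each, adjusted p = 0.00114 from limma), and it was above the array median on 4 of the 6 arrays. Osteoclast markers averaged 10.94 to 11.12 per H10 array and 9.42 to 9.75 per C8 array, and 6 of 8 passed the test as higher in H10 cells. All 3 B cell markers measured were below the median of every array, as were 3 of 4 markers of T and NK cells. Of 4 markers of fibroblasts and osteoblasts, 2 were above the median of every array and the list averaged 7.76 to 8.10 in H10 and 7.50 to 7.66 in C8 cells. Those 2 were Col1a1 and Col1a2. Dcn of the same list, which encodes the matrix protein decorin, was above the array median on 2 of the 6 arrays. It was at 7.80 ± 0.64 in H10 and 6.32 ± 0.16 in C8 cells (SD, n = 3 each, adjusted p = 0.074 from limma). The part of these markers in the differences given here was not tested.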

How the data were processed

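Total RNA from 3 arrays each of H10 and C8 cells was measured on Affymetrix Mouse Gene 1.0 ST arrays. The deposited log2 values had been made by the authors with RMA (background correction, quantile normalization and probe summary). Affymetrix Expression Console is the tool named in the submitters' notes on processing, and its version is not given in the sources used here. In all, the table held 35545 features, with 1 gene symbol for 21781, several for 1621 and none listed for 12143, and the feature with the highest mean stood for a gene. No filter and no further normalization were applied. RMA equalizes the arrays, so a shift shared by all genes cannot be seen, and background was not measured.

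The lines were compared by lmFit and eBayes of limma 3.58.1, run in R 4.3.3 (two-sided, 4 residual and 2.57 prior degrees of freedom), the tool of the paper's methods, with Benjamini-Hochberg adjustment over all features and a threshold of 0.05. The methods also asked for a fold change of at least 5, which was not required here. The fit was tested on simulated data. Arrays have no read depth, and their number limits the precision. The members and lists were chosen with earlier results of these data known. Members were given on each array where they had an unadjusted p under 0.05 or no overlap between the lines, besides Tnfrsf11a and Traf6. Traf1, Nfkb2, Nfkbia, Nfkbie, Nfkbiz, Bcl3, Ikbke and Tab1 were added after their values were seen. From each list up to 3 genes past the test in each direction were named and at most 2 of its chief genes otherwise. Dusp6 was added after its values were seen. In all, 16 alternatives were tried. They left out each array or the replicate 1 arrays, fitted the replicate number as a block, or changed the scaling, filter, features, variance model or threshold, and a term for replicate 1 was added after seeing the data. Plots were made in Python 3.11.15 by matplotlib 3.10.9.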

Additional observations from a re-analysis of the deposited data

How the results depend on the processing

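The count of 0 members higher in H10 cells was 1 (Tnfaip3) with the filter on dim features or with features averaged per gene, and the count of 0 lower was 1 (Nfkbiz) with the term for replicate 1. Both stayed at 0 without any 1 array. Single members were followed for Tnfrsf11a, Traf5, Traf6, Rela, Map3k14, Map3k7, Tnfaip3, Birc3, Mapk9 and Nfkbiz, which kept their direction in all 17 settings. Several of these settings change only the standard error, the adjustment, the threshold or the choice of features. For these members, with 1 feature each, such settings return the main fold change and could not change a direction.

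Over the fits without 1 array, the counts of genes that rose were 0 to 1 for adaptors and ubiquitin regulators, 1 to 2 for the MAP kinase cascade, 0 to 2 for the Src and PI3K arm and 2 to 3 for NF-kB targets, and that of MAP kinase cascade genes that fell was 0 to 1. With the replicate number as a block, the adaptors had 0 higher and the cascade 0 lower, and no member passed, the adjusted p of Nfkbiz being 0.0711, and the calls of Trafd1, Map2k1, Src and Irf1 were lost (adjusted p = 0.0517, 0.136, 0.103 and 0.0507). At an FDR of 0.01 the counts were 0 higher for adaptors, 1 higher and 0 lower for the cascade, and 0 higher for the Src and PI3K arm. Median centring gave 0 lower for the cascade and 0 higher for the Src and PI3K arm. The filter, which tests fewer features, gave 2 lower for the cascade, 2 higher and 1 lower for the Src and PI3K arm and 5 higher for NF-kB targets, and the mean of all features gave 3 lower, 3 higher and 1 lower, and 5 higher. With the term for replicate 1 the cascade had 2 lower and the Src and PI3K arm 3 higher and 1 lower. With replicates 2 and 3 alone that arm had 2 higher, and with an intensity trend 1 lower. The log2 fold change of Irf1 was -0.02 for the feature with the lowest mean. The cause of these changes was not tested.

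The deviations of same-numbered arrays correlated at 0.17, -0.00 and -0.12 for replicates 1, 2 and 3 across features, and only the replicate 1 arrays correlated best with their own number, so the replicate numbers were not taken to pair the arrays.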
